A study of Homo sapiens with 5 samples.

Results

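The mRNAs of the translation initiation factors were followed through RNA immunoprecipitation sequencing (RIPseq) of CBFB and of hnRNPK in MCF10A cells. The set was the protein-coding genes whose symbol starts with EIF1 to EIF6, without pseudogenes and without the gene on chromosome Y, which gave 55 of the 56632 gene identifiers in each table. A mean FPKM (fragments scaled to transcript length and library size) of at least 1 over the 5 libraries was reached by 53 of the 55, and by 11764 genes in all. EIF4E1B was listed at 0 in every library, and EIF5AL1 lay between 0.23 and 1.17 FPKM. MCF10A is an immortalized, non-tumorigenic line of human mammary epithelial cells. The parental line gave 1 input library and 2 repeats of an immunoprecipitation with an antibody against endogenous hnRNPK. MCF10A cells that express FLAG-tagged CBFB gave 1 input library and 1 immunoprecipitation with an antibody against FLAG. The study's methods describe FLAG-CBFB expressed from a lentivirus in CBFB knockout MCF10A cells for pulldown, but the labels of these libraries do not say whether their line still carried its own CBFB gene. The sample titles name no treatment of the cells, and a mock immunoprecipitation was not analysed here.

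Initiation factors bring the small ribosomal subunit, the initiator tRNA and the mRNA together. The cap-binding protein eIF4E, the scaffold eIF4G and the helicase eIF4A form the eIF4F complex on the mRNA, eIF2 carries the initiator tRNA, eIF2B recharges eIF2 with GTP, and eIF3 joins the small subunit to the mRNA. Phosphorylation of eIF2 by stress kinases and capture of eIF4E by its binding proteins are the best known brakes on the process. hnRNPK is an RNA-binding protein whose KH domains bind runs of C, and CBFB is best known as the partner of the RUNX transcription factors.

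The libraries held from 69786576 to 106855647 expected counts, and the cells carried epithelial transcripts, with KRT5 at 1640 FPKM in the parental input and PTPRC and CDH5 at 0.01 or below in both inputs. The inputs gave 4.27% and 11.2% of their counts to transcripts of the mitochondrial genome, whereas the RIP of FLAG-CBFB gave 62.2% and those of hnRNPK 84.5% and 86.6%. FPKM is a share of all counts, so an mRNA that kept its share among nuclear-encoded transcripts had a lower FPKM in a RIP than in the input. Each RIP is therefore described on scales that treat this loss differently. The share of nuclear-encoded counts leaves out the mitochondrial transcripts. The centred enrichment is log2(FPKM + 1) in the RIP minus the same in its own input, with its mean over the 11764 genes set to 0, and a value above 2 (4-fold) was called enriched. Because 1 is added to each FPKM, the centred enrichment is pulled up for mRNAs of low level and understates their change.

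Initiation factor mRNAs as a whole took much the same share of the nuclear-encoded counts before and after immunoprecipitation, but the mRNAs that made up this share were different. The 55 genes held 1.66% of the nuclear-encoded counts in the parental input, then 1.54% and 1.75% in the hnRNPK RIPs. They held 1.75% in the FLAG-CBFB cell input and 1.52% in the FLAG-CBFB RIP. EIF4A1, the major eIF4A helicase, had the most counts of all members in both inputs, and EIF4G2 had the most in all 3 RIPs. EIF4G2 alone supplied 5.96% of the initiation factor counts in the parental input, then 34.2% and 36.0% in the hnRNPK RIPs. The 14 eIF3 genes together went the other way, from 33.9% in the parental input to 8.43% and 6.24% in the hnRNPK RIPs. In the FLAG-CBFB arm, EIF4G2 went from 5.1% of these counts to 17%, and the eIF3 genes from 38.7% to 26.6%. These shares need no centring. The 95% Wilson interval of the EIF4G2 share in hnRNPK repeat 2 was 35.8% to 36.2%. Such intervals cover counting error only. Without EIF4G2 and EIF5A, the remaining members held 1.42% of the nuclear-encoded counts in the parental input, then 0.777% and 0.797% in the hnRNPK RIPs.

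**Figure D1:**
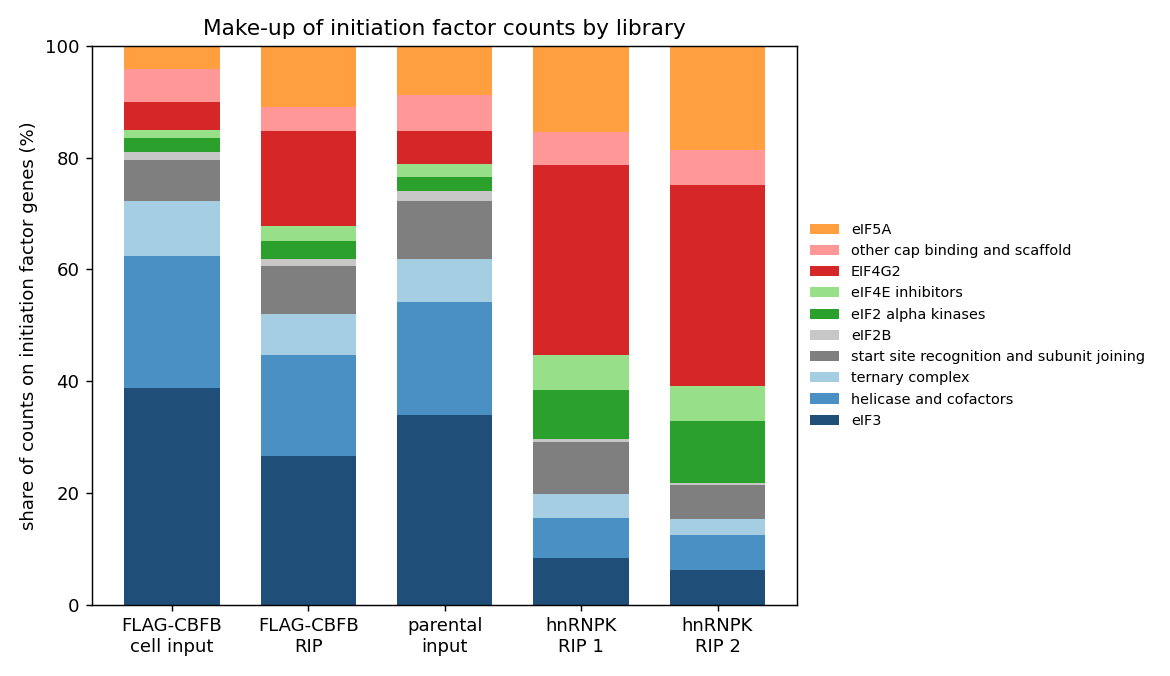
Share of the counts on the 55 initiation factor genes taken by each group, in percent, for each of the 5 libraries. EIF4G2 (red) grew from 5.96% of the bar in the parental input to 34.2% and 36.0% in the hnRNPK RIPs, while eIF3 (dark blue) shrank from 33.9% to 8.43% and 6.24%.

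Members recovered with hnRNPK in excess of the average mRNA were about as frequent as among all analysed genes. The share of nuclear-encoded counts was higher than in the parental input in both hnRNPK repeats for 8 of the 53 members (15.1%, against 19.3% of all analysed genes), and lower in both for 43 (81.1%, against 76.1%). The 8 were EIF4EBP2, EIF1AD, EIF2AK1, EIF4G2, EIF4G3, EIF5A, EIF1B and EIF4ENIF1. Centred enrichment was above 2 for 4 members, which is 7.55% of 53 against 8.20% of all analysed genes, and above 1 for 7 members (13.2% against 20.9%). It was below -2 for 10 members, 18.9% against a background of 6.24%. The repeat that was left out mattered for this last count, which was 16 from repeat 2 alone and 8 from repeat 1 alone, against 6.11% and 6.68% of all analysed genes. The 10 members below -2 had 66.1 FPKM or more in the parental input, and across all analysed genes centred enrichment was lower where the parental input FPKM was higher (Spearman rho -0.745, n = 11764 genes, and -0.562 over the 53 members). The genes of such a correlation share their libraries and their depth. The parental input FPKM also enters both of its sides, with opposite signs, so part of the negative value is built in. The median FPKM in the parental input was 114 for the members and 14.2 for all analysed genes.

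The median centred hnRNPK enrichment of the 53 members was -1.36 in repeat 1 and -1.30 in repeat 2, beside -0.12 and -0.10 for all analysed genes. The distance between the members and all genes depended on the scale and on the filter. It was -1.26 (log2) on the centred FPKM scale, with or without centring, but -0.37 in log2 CPM with TMM factors and -0.39 in the share of nuclear-encoded counts. It was -0.27 when only genes with a mean of at least 20 FPKM were kept and -3.96 when no gene was filtered out. In each of these settings the median member lay below the median gene. The repeats were close to each other, with a standard deviation of 0.337 for the difference between repeats over the members and 0.351 over all analysed genes. Both repeats were set against the same single input, so their spread holds none of the error of the input.

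**Figure D2:**
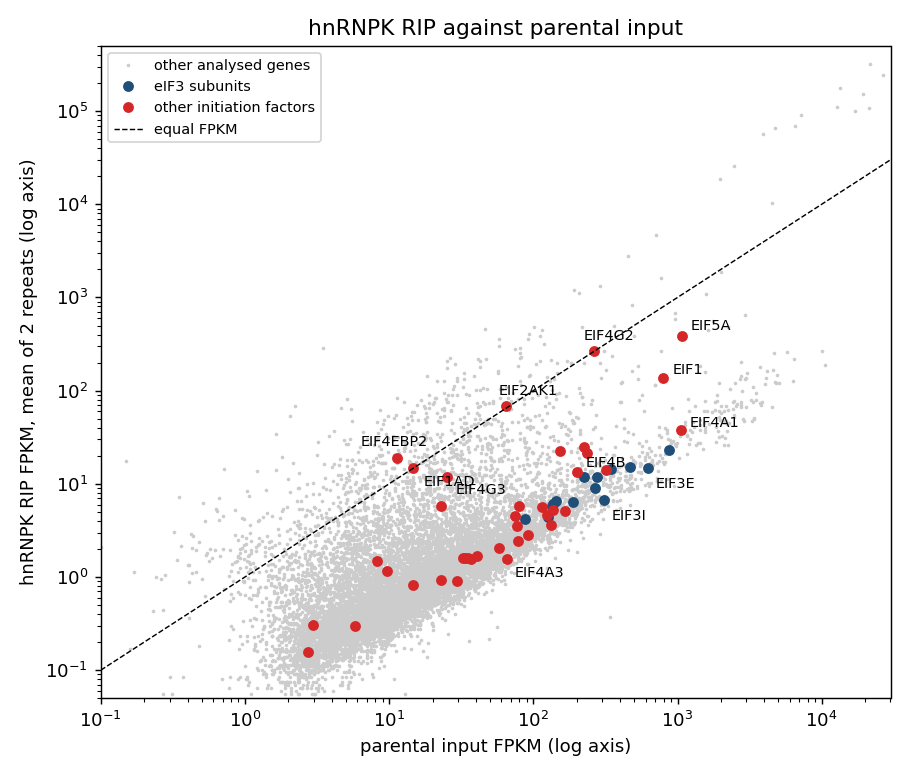
FPKM in the hnRNPK RIP (mean of 2 repeats) against FPKM in the parental input, both on log axes, for 11645 of the 11764 analysed genes. Those with less than 0.05 FPKM on either axis are not drawn. EIF4G2, EIF2AK1, EIF4EBP2 and EIF1AD lie on or above the dashed line of equal FPKM. The eIF3 subunits (blue) all lie below that line, as does most of the cloud.

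Counts were tested with edgeR's quasi-likelihood test, with TMM factors and Benjamini-Hochberg adjustment over the 11764 genes. The TMM-scaled abundance of an mRNA was higher in the hnRNPK RIP than in the parental input for 10 of the 53 members (18.9%, against 24.6% of all analysed genes) and lower for 13 (24.5%, against 14.3%). With DESeq2's size factors in the same test the split was 12 higher and 10 lower (22.6% and 18.9%, against 26.0% and 12.9% of all analysed genes). With DESeq2's Wald test it was 10 higher and 5 lower (18.9% and 9.43%, against 23.8% and 7.11%). The 10 mRNAs called higher were the same in DESeq2. These were the 8 mRNAs named above together with EIF1 and EIF2S3, whose share of nuclear-encoded counts was not higher in both repeats. Across all 6 fits 9 of the 10 stayed higher, with EIF2S3 the exception, and 5 of the 13 stayed lower: EIF2A, EIF3E, EIF3H, EIF3I and EIF4A3. With 2 repeats against 1 input the fit has 1 residual degree of freedom, and its spread comes from the 2 repeats alone.

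**Figure D3:**
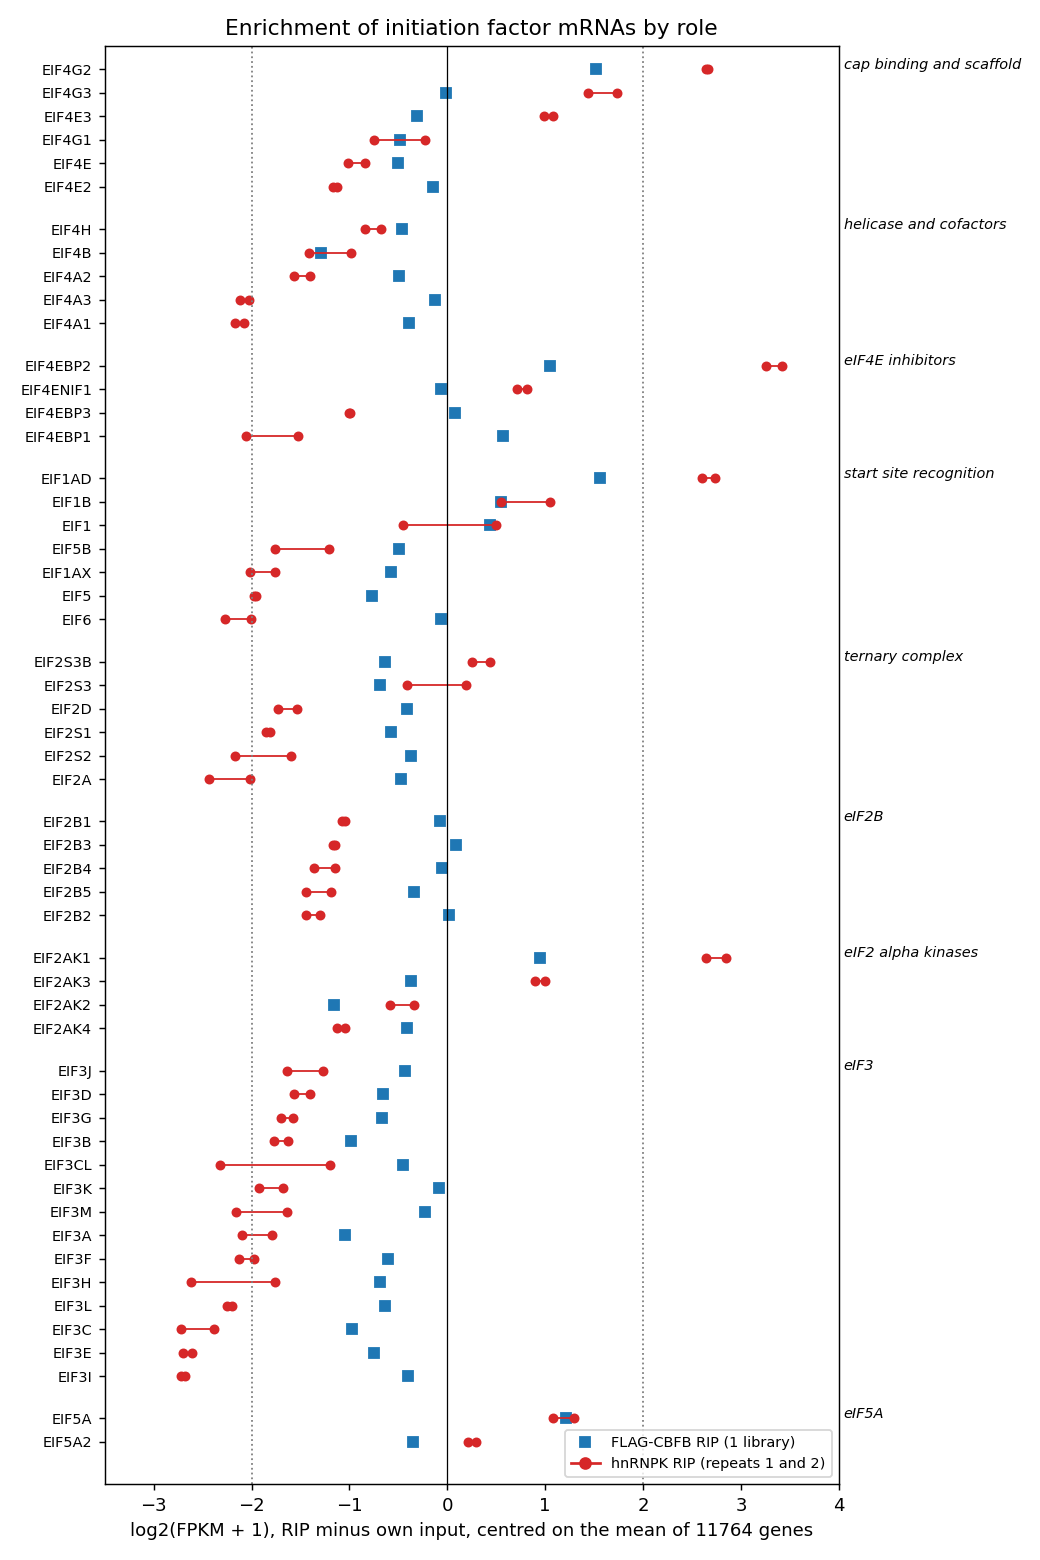
Centred log2 enrichment of each of the 53 members, grouped by role, in the FLAG-CBFB RIP (blue squares, 1 library) and in hnRNPK repeats 1 and 2 (red points joined by a line). Dotted lines mark -2 and 2. The 4 members to the right of 2 are EIF4G2, EIF4EBP2, EIF1AD and EIF2AK1, and all 14 eIF3 genes lie to the left of -1 in both hnRNPK repeats.

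Among the cap-binding and scaffold genes, the 3 eIF4G mRNAs differed from each other. EIF4G2 (also called DAP5) encodes a relative of eIF4G1 that lacks the binding site for eIF4E. Its FPKM was 264 in the parental input, then 271 and 261 in the hnRNPK RIPs. It was 260 in the FLAG-CBFB cell input and 294 in the FLAG-CBFB RIP. EIF4G2 thus kept its FPKM in every RIP, although mitochondrial transcripts filled most of each of these libraries. Its share of nuclear-encoded counts was 0.099% in the parental input, then 0.526% and 0.631% in the hnRNPK RIPs, which is 5.31-fold and 6.38-fold higher. The edgeR log2 fold change was 3.90 (SE 0.37, adjusted p = 1.76e-07). EIF4G1, the main scaffold of eIF4F, had 225 FPKM in the parental input, close to EIF4G2, but 21.0 and 29.2 in the hnRNPK RIPs. The edgeR log2 fold change of EIF4G1 was 0.84 (SE 0.34, adjusted p = 0.0595). EIF4G3, a further eIF4G scaffold, lay between them, with 25.2 FPKM in the parental input, then 13.3 and 10.1 in the hnRNPK RIPs (log2 fold change 2.94, SE 0.37, edgeR adjusted p = 3.96e-06). The change of EIF4G2 exceeded that of EIF4G1 by 3.14 ± 0.36 on the log2(FPKM + 1) scale (SD, n = 2 repeats) and by 3.08 ± 0.23 in log2 counts scaled to library size (CPM). In the FLAG-CBFB RIP EIF4G2 exceeded EIF4G1 by 2.001 on the former scale. Such differences between members do not depend on the centring. The mRNAs of the cap-binding proteins were not called in either direction by edgeR with TMM factors, nor by DESeq2, but with DESeq2's size factors in edgeR EIF4E3 was called higher, as was EIF4G1. EIF4E had 80.1 FPKM in the parental input, then 5.58 and 6.07 in the hnRNPK RIPs, and 13.1% to 28.1% of the counts on EIF4E and its processed pseudogenes lay on the pseudogenes. EIF4E2, the lowest of this group, had 75.1 FPKM, then 4.71 and 4.27. EIF4E3 had 2.98, then 0.38 and 0.23, so its centred hnRNPK enrichment of 1.03 is a value at low level, while its share of nuclear-encoded counts was 0.937-fold and 0.755-fold that of the input.

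The sequences below are the 30 bases richest in C of the longest protein-coding transcript of each gene, shown because hnRNPK binds runs of C. They are given for the 4 mRNAs above 2 in the hnRNPK RIP and for 3 of the 5 lowest. They were read from the GENCODE 29 transcripts, whose genome positions are on GRCh38 and not on the hg19 of the deposited tables. Runs of 3 or more C are in capitals.
EIF4EBP2: CCCagccagagccgcgccatCCCCaCCCgc
EIF2AK1: CCCCCttCCCCaaatgctcacagtCCCCCC
EIF1AD: agtccaCCCtacaCCCCtctgtctCCCtcc
EIF4G2: tctcctgtCCCCtCCCCtCCCCaCCCCatc
EIF3I: cgtcctgtcaactcagctgCCCtctCCCCC
EIF3C: gtccggccgtagcacctccgcgccgtcgcc
EIF2A: cacctactcctgCCCCacagagcacaccac
The EIF4G2 window (chr11:10807342-10807371, minus strand, exon 2, 5′ UTR) holds 20 C. The EIF2AK1 window (chr7:6022686-6022715, minus strand, exon 15, 3′ UTR) and the EIF4EBP2 window (chr10:70404432-70404461, plus strand, exon 1, coding sequence) hold 18 each. The EIF1AD window (chr11:65997724-65997753, minus strand, exon 6, 3′ UTR) holds 17. The windows of EIF3I (chr1:32228775-32228804, plus strand, exon 8, coding sequence) and EIF2A (chr3:150581649-150581678, plus strand, exon 12, coding sequence) hold 16 each, and that of EIF3C (chr16:28711657-28711686, plus strand, exon 2, 5′ UTR) holds 15. The median of the richest window was 18 C over 10531 analysed genes with a coding transcript and 17 over the members, so the windows of the enriched mRNAs are near that of the usual mRNA. A window with at least 20 C was present in 5 of the 53 members and in 25.1% of the genes. Of these 5 members only EIF4G2 was above 2 in centred hnRNPK enrichment. The others were EIF4G1 (22 C, enrichment -0.49), EIF1 (21 C, 0.03), EIF4B (20 C, -1.20) and EIF4E3 (20 C, 1.03). Across the 53 members, hnRNPK enrichment went with the C content of the richest window (Pearson r = 0.513, Spearman rho = 0.621), and across the 10531 genes more weakly (0.341 and 0.32). It went less with the density of CCCC on the sense strand (Spearman rho 0.361 over the members, 0.241 over all), a motif that 98.5% of the genes and all 53 members hold, with overlapping matches counted. For CBFB enrichment the Spearman rho with the richest window was 0.105 over the members. Longer transcripts offer more windows, and the members were of median length 3060 bases against 3390 for all genes. The longest transcript could exceed the mean length that the quantification assigned in the parental input. It had 4469 bases against 3231 for EIF2AK1, 2887 against 1444 for EIF1AD and 11520 against 1003 for EIF4E, but 7257 in both for EIF4EBP2. Some windows, and the correlations with them, may thus rest on sequence that the counted isoforms lack. These matches are a description of the annotated transcripts, and binding at these bases was not measured.

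The helicase and its cofactors all had a negative centred hnRNPK enrichment, from -2.13 (EIF4A1) to -0.76 (EIF4H), but the cofactors EIF4B and EIF4H lay above the median gene in the share of nuclear-encoded counts. EIF4A1 had 1053 FPKM in the parental input, then 39.9 and 35.5 in the hnRNPK RIPs. EIF4A3, the relative of eIF4A in the exon junction complex, had 66.1 FPKM, then 1.54 and 1.57. Both fell by edgeR, EIF4A1 with a log2 fold change of -0.91 (SE 0.30, adjusted p = 0.0215) and EIF4A3 with -1.36 (SE 0.33, adjusted p = 0.00357). EIF4A2, the second helicase of eIF4F, did not pass the test (-0.39, SE 0.34, edgeR adjusted p = 0.378). EIF4A1 overlaps a read-through gene with SENP3, and counts could be split between them. EIF4B, which stimulates the helicase, had 200 FPKM in the parental input, then 15.7 and 10.8 in the hnRNPK RIPs. It had 486 FPKM in the FLAG-CBFB cell input and 77.6 in the FLAG-CBFB RIP. The gene lies at chr12:53006158-53042209 (GRCh38, plus strand). Its centred enrichment was -1.29 for CBFB, the lowest of the 53 members, and -0.98 and -1.41 in the hnRNPK repeats. Set against the input of the parental line instead, the CBFB value of EIF4B was 0.01, the 16th highest of the 53. Each input is 1 library, and whether the lines differ in EIF4B mRNA was not tested. The edgeR log2 fold change of EIF4B in the hnRNPK RIP was 0.18 (SE 0.32, adjusted p = 0.689), so the sign for hnRNPK depended on the scaling. Its share of nuclear-encoded counts was 47.0% and 41.5% of that in the parental input, beside a median of 27.8% for the members and 36.5% for all analysed genes, and 44.8% in the FLAG-CBFB RIP, beside medians of 75.3% and 73.2%. EIF4B thus lay above the median member in the hnRNPK RIPs and below it in the FLAG-CBFB RIP on this scale. EIF4H, a cofactor related to eIF4B, was the highest of the group, with 237 FPKM in the parental input, then 23.3 and 19.7 in the hnRNPK RIPs. It kept 56.4% and 55.0% of its share of nuclear-encoded counts (edgeR log2 fold change 0.51, SE 0.32, adjusted p = 0.218).

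The inhibitors of eIF4E ranged in centred hnRNPK enrichment from 3.33 (EIF4EBP2), the highest of the family, to -1.79 (EIF4EBP1), with 17 members lower still. EIF4EBP2 encodes 4E-BP2, which holds eIF4E away from eIF4G. It was the only initiation factor mRNA with more FPKM in the hnRNPK RIPs than in the input in both repeats by over 1.5 times, with 11.3 in the parental input, then 18.2 and 19.5. Its share of nuclear-encoded counts was 9.23-fold and 11.4-fold that of the input (edgeR log2 fold change 4.72, SE 0.40, adjusted p = 4.59e-08). The mRNA of its close relative 4E-BP1, EIF4EBP1, had 317 FPKM in the parental input, then 17.1 and 10.96 (edgeR log2 fold change -0.51, SE 0.35, adjusted p = 0.261). The change of EIF4EBP2 exceeded that of EIF4EBP1 by 5.12 ± 0.49 (SD, n = 2 repeats, log2(FPKM + 1)), the widest gap among 16 pairs of related members, which were picked with their values known. In the FLAG-CBFB RIP the gap was 0.49, with 16.7 FPKM in the input and 13.5 in the RIP for EIF4EBP2, then 111 and 64.6 for EIF4EBP1. EIF4ENIF1, the eIF4E transporter 4E-T, was called higher in the hnRNPK RIP (8.21 FPKM in the input, 1.48 and 1.52 in the RIPs, edgeR log2 fold change 1.48, SE 0.36, adjusted p = 0.00352). EIF4EBP3 had 23.0 FPKM in the parental input, then 0.98 and 0.87, and shares its locus with the read-through gene ANKHD1-EIF4EBP3, so that its counts are uncertain.

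**Figure D4:**
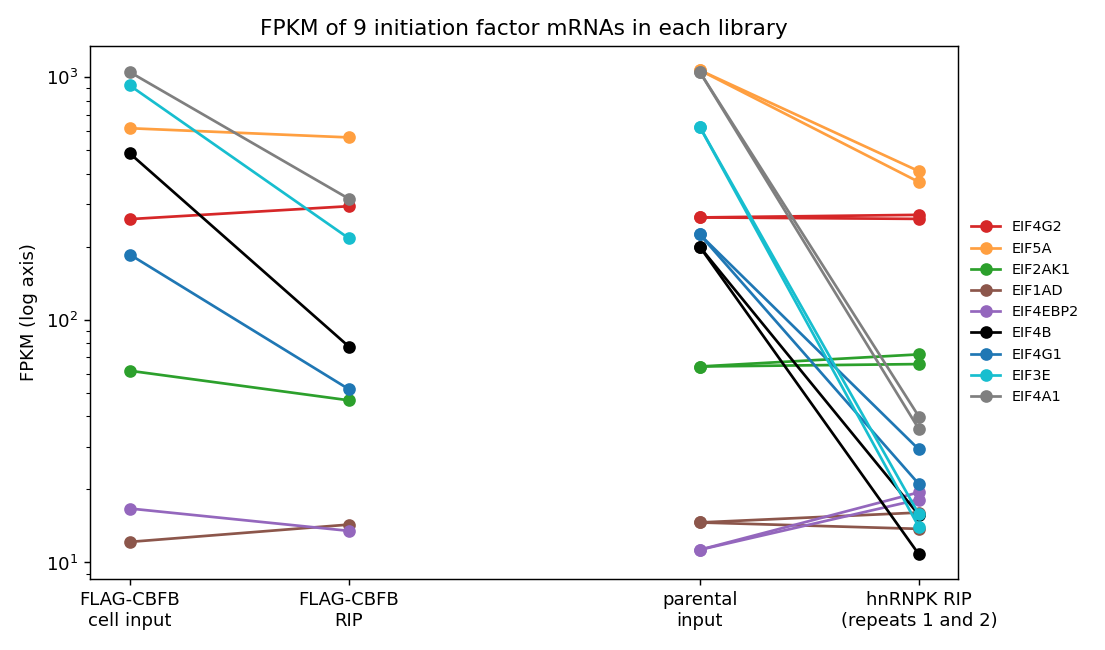
FPKM on a log axis of 9 initiation factor mRNAs, chosen with their values known, in each input and its RIP, with lines joining each RIP to its own input. EIF4G2, EIF2AK1, EIF1AD and EIF4EBP2 run level or upwards into the hnRNPK RIP, whereas EIF4A1, EIF3E, EIF4G1 and EIF4B drop steeply.

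In the group of start site recognition and subunit joining, EIF1AD stood at the top. EIF1AD is in the set by its symbol and is named for its eIF1A-like domain. Its place in this group is no statement that its protein acts at the start site. EIF1AD had 14.6 FPKM in the parental input, then 16.1 and 13.8 in the hnRNPK RIPs. It had 12.2 in the FLAG-CBFB cell input and 14.3 in the FLAG-CBFB RIP, the highest CBFB enrichment of the family. The share of EIF1AD among nuclear-encoded counts was 8.61-fold and 8.81-fold that of the parental input (edgeR log2 fold change 4.47, SE 0.42, adjusted p = 1.21e-07) and 3.81-fold that of its own input in the FLAG-CBFB RIP. EIF1, which guards the choice of the start codon, was split between the repeats, with 799 FPKM in the parental input, then 185 and 90.4, and its share was 1.36-fold and 0.77-fold that of the input. It was nevertheless called higher by edgeR (log2 fold change 1.45, SE 0.37, adjusted p = 0.00516), as was its close relative EIF1B, with 23.0 FPKM in the input, then 7.16 and 4.47 (1.97, SE 0.39, adjusted p = 0.000555). EIF6, which keeps the large ribosomal subunit apart, was the lowest of the group, with 165 FPKM, then 4.64 and 5.48 (edgeR log2 fold change -1.06, SE 0.34, adjusted p = 0.0191). EIF5, EIF5B and EIF1AX did not pass the test in either direction. EIF1AX has a near-identical copy on chromosome Y that is not described, and when its processed pseudogenes were added its centred hnRNPK enrichment moved from -1.89 to -2.49.

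The eIF2 subunits, eIF2B and the eIF2 kinases gave a single mRNA that stood high. EIF2AK1 encodes the heme-regulated kinase HRI. It had 64.2 FPKM in the parental input, then 65.7 and 72.1 in the hnRNPK RIPs. Its share of nuclear-encoded counts was 5.82-fold and 8.27-fold that of the input (edgeR log2 fold change 4.16, SE 0.40, adjusted p = 1.74e-07). In the FLAG-CBFB arm EIF2AK1 had 61.7 FPKM in the input and 46.6 in the RIP, a share 1.87-fold higher. The other kinases that act on the same site of eIF2 did not pass the test. EIF2AK2 (PKR) had 14.6 FPKM in the parental input, then 0.71 and 0.93. EIF2AK4 (GCN2) had 33.6, then 1.75 and 1.47. EIF2AK3 (PERK) had 2.74, then 0.14 and 0.17, and its centred hnRNPK enrichment of 0.95 stands beside a share of nuclear-encoded counts that was 29.99% and 22.2% of the input. The change of EIF2AK1 exceeded that of EIF2AK4 by 3.83 ± 0.20, that of EIF2AK2 by 3.20 ± 0.03 and that of EIF2AK3 by 1.79 ± 0.07 (SD, n = 2 repeats, log2(FPKM + 1)). For the low EIF2AK3 the difference was 4.75 ± 0.67 in log2 CPM.

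Among the genes of the ternary complex, EIF2S3, the gamma subunit of eIF2, was called higher by edgeR with 153 FPKM in the parental input, then 27.8 and 17.1 in the hnRNPK RIPs (log2 fold change 1.04, SE 0.34, adjusted p = 0.0214), a call that was lost when no filter beyond a count above 0 was used. Its share of nuclear-encoded counts was lower than in the input, at 92.3% and 68.9%, and its centred enrichment was split, at 0.19 and -0.41. The alpha subunit EIF2S1 had 137 FPKM, then 5.44 and 4.96, and the beta subunit EIF2S2 had 125, then 5.8 and 3.36. Neither passed the test. EIF2S3B, a retrocopy of EIF2S3 that the counting could confuse with it, had 9.61, then 1.35 and 0.97. EIF2A, a factor that can deliver initiator tRNA outside the eIF2 route, was the lowest of this group, with 132 FPKM, then 4.4 and 2.85 (edgeR log2 fold change -1.26, SE 0.33, adjusted p = 0.00558). The 5 eIF2B subunits were tightly grouped, with centred hnRNPK enrichments from -1.37 (EIF2B2) to -1.06 (EIF2B1). EIF2B1 had 32.7 FPKM in the parental input, then 1.67 and 1.5. Of the 5, only EIF2B2 passed the test, with 29.8 FPKM in the input, then 0.86 and 0.95 (edgeR log2 fold change -1.09, SE 0.36, adjusted p = 0.0231).

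The eIF3 subunits lay toward the low end of the family, ranked from 28 (EIF3J) to 53 (EIF3I) of 53 in centred hnRNPK enrichment. In the share of nuclear-encoded counts they ranked from 21 (EIF3J) to 53 (EIF3I). All 14 were below -1 in centred hnRNPK enrichment, where 25.3% of all analysed genes were, and 6 were below -2 (6.24%). With a minimum mean of 20 FPKM, 0 members of the family were below -2, where 3.52% of such genes were. By edgeR 7 of the 14 were lower and 0 were higher in the hnRNPK RIP, where 14.3% and 24.6% of all analysed genes were. By DESeq2 3 of the 14 were lower (EIF3E, EIF3H and EIF3I), against 7.11%. EIF3I, a subunit with a WD40 propeller, was the lowest of the whole family, with 311 FPKM in the parental input, then 6.99 and 6.4 in the hnRNPK RIPs (log2 fold change -1.60, SE 0.32, edgeR adjusted p = 0.000556). EIF3E had 625 FPKM, then 15.8 and 14.0 (-1.37, SE 0.31, edgeR adjusted p = 0.0016). EIF3H had 268 FPKM, then 11.99 and 5.86. EIF3L had 466, then 15.6 and 14.3, and did not pass the test. EIF3F had 189, then 6.95 and 5.79. EIF3C had 875, then 20.8 and 25.1, and shares 33.4% to 49.8% of the counts on the pair with its near-identical copy EIF3CL, which makes both uncertain. EIF3J, the loosely bound subunit, was the highest of the group, with 87.0 FPKM, then 5.0 and 3.43. The group median was -1.72 and -2.14 in the repeats. In the FLAG-CBFB RIP all 14 were below 0, with a median of -0.65 and a range from -1.05 (EIF3A, 189 FPKM in the input and 35.3 in the RIP) to -0.09 (EIF3K, 257 and 94.9). Below 0 lay 64.9% of all analysed genes.

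EIF5A, whose hypusine-bearing protein acts in elongation and termination, had the highest FPKM of any member in the parental input, 1069, then 370 and 410 in the hnRNPK RIPs. Its share of nuclear-encoded counts was 1.64-fold and 2.26-fold that of the input (edgeR log2 fold change 2.31, SE 0.35, adjusted p = 3.76e-05). EIF5A kept 616 and 565 FPKM in the FLAG-CBFB cell input and RIP. Its paralog EIF5A2 was low, with 5.81 FPKM in the parental input, then 0.29 and 0.3.

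In the FLAG-CBFB RIP no initiation factor mRNA passed the threshold of 2, in either direction. The background was 4.37% above 2 and 0.0935% below -2. With 1 library on each side there is no test. Above 1 were EIF1AD (1.56), EIF4G2 (1.52), EIF5A (1.21) and EIF4EBP2 (1.05), 4 of 53 members or 7.55%, against 9.27% of all analysed genes. Below -1 were EIF4B (-1.29), EIF2AK2 (-1.16) and EIF3A (-1.05), 5.66% against 3.81%. EIF4EBP1, at 0.57, stood with the higher members for CBFB only. The median over the 53 members was -0.40, beside -0.19 for all analysed genes, and in log2 CPM with TMM factors the median member lay 0.04 above the median gene, so that for CBFB the family did not stand clearly to either side. The share of nuclear-encoded counts was higher in the RIP than in the input for 9 of the 53, against 21.3% of all analysed genes. The 5 members with the highest CBFB enrichment included all 4 that were above 2 for hnRNPK. Over the members CBFB and mean hnRNPK enrichment had a Pearson r of 0.697 and a Spearman rho of 0.502, close to the 0.642 and 0.477 over all 11764 genes. The RIPs have separate inputs, but these values share the annotation and the loss of depth to mitochondrial transcripts.

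**Figure D5:**
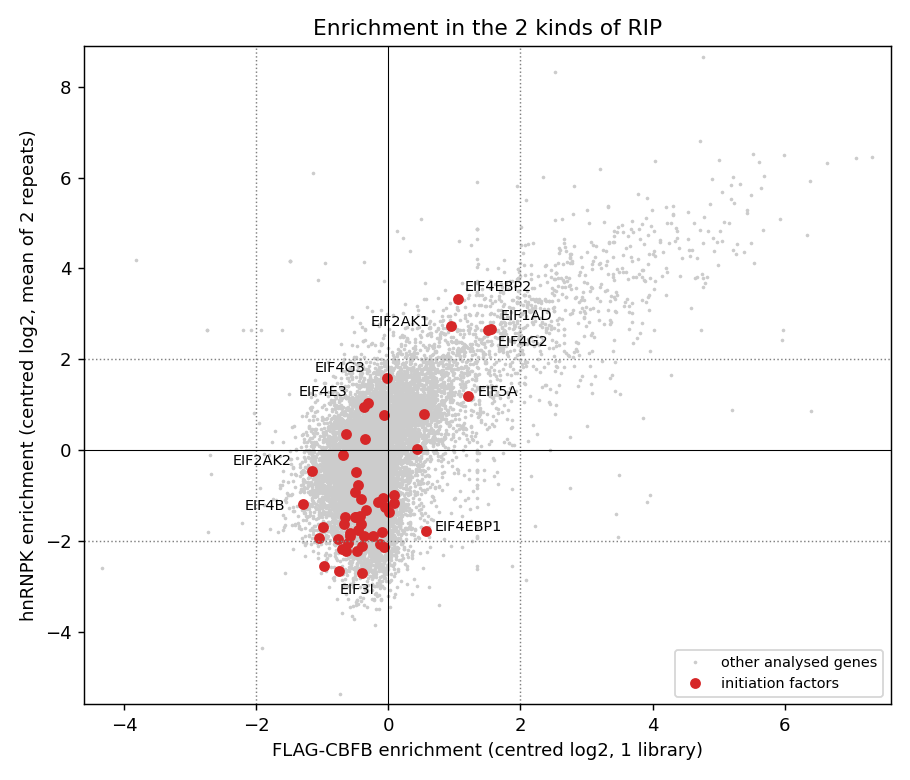
Centred log2 enrichment in the hnRNPK RIP (mean of 2 repeats) against that in the FLAG-CBFB RIP (1 library) for the 53 members (red) and the other analysed genes (grey), with dotted lines at -2 and 2. EIF4EBP2, EIF2AK1, EIF1AD and EIF4G2 lie above 2 on the hnRNPK axis and between 0.94 and 1.56 on the CBFB axis, and EIF4B is farthest left among the members.

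The inputs themselves differed in a few members. In the FLAG-CBFB cell input against the parental input, EIF4B was at 486 and 200 FPKM, EIF4A2 at 249 and 114, EIF4E3 at 7.02 and 2.98, and EIF4EBP1 at 111 and 317. These were the members past 1 or -1, with centred log2 ratios of 1.30, 1.15, 1.04 and -1.47. Above 1 were 5.66% of the members, against 4.70% of all analysed genes, and below -1 were 1.89%, against 4.87%. There was 1 library of each kind, so no replicate check. When each RIP was set against the input of the other line, the median hnRNPK enrichment of the members was -1.02.

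Other genes of translation gave a range of values in the hnRNPK RIP. Of 20 partners of initiation, 8 were higher and 3 were lower by edgeR (24.6% and 14.3% of all analysed genes), and none was above 2 in centred enrichment (8.20%). The highest was MKNK2, a kinase of eIF4E, with 109 FPKM in the parental input, then 43.0 and 27.8 in the hnRNPK RIPs. PABPC1, the major poly(A)-binding protein, had 1754, then 606 and 523. The lowest was BZW2, with 101, then 3.02 and 2.14. Of 10 measured elongation and termination factors, 0 were higher and 1 was lower by edgeR, beside the same 24.6% and 14.3%, with a median centred enrichment of -1.75. That one was EEF1A1, the main carrier of aminoacyl tRNA, with 6408 FPKM in the input, then 254 and 180. EEF2K was the highest of these, with 6.84, then 0.64 and 0.34. The 4 members listed as mRNAs with a 5′ terminal oligopyrimidine tract, EIF3E, EIF3F, EIF3H and EIF4B, had a median of -2.12 for hnRNPK and -0.72 for CBFB. For reference, GAPDH had centred enrichments of -2.66 and -2.72 in the hnRNPK repeats and -0.18 for CBFB, and RUNX1 had 3.29 and 2.89, and 2.13.

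The mean transcript length that the quantification assigned to a gene rises when longer isoforms take more of its reads. In hnRNPK repeat 1 it was over 1.5 times longer than in the parental input for 3 of 50 members with at least 100 counts in both libraries (EIF2AK2, EIF2S1 and EIF3C), where 5.81% of all such genes were. In repeat 2 it was so for 4 of 49 (EIF1AX, EIF2AK2, EIF2S1 and EIF5), against 5.66%. EIF2AK2 went from 4416 bases in the parental input to 9054 and 7939, and EIF2S1 from 1164 to 1947 and 1764. Shares near the background are no result about the family. The count-based log2 fold change of EIF2S1 was 0.00 while its FPKM stood at 137, then 5.44 and 4.96. EIF2S2, whose mean length was 2656 bases in every library, had 125 FPKM, then 5.8 and 3.36, with a log2 fold change of -0.82. How much length added to such gaps was not tested. In the FLAG-CBFB RIP only EIF5A2 was longer, from 1737 to 4017 bases, where the background was 0.560%, and no member with at least 100 counts was shorter by as much in any RIP against its own input.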

How the data were processed

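RNA was sequenced from 5 libraries, and the authors deposited, for each, a table of RSEM expected counts, FPKM and mean transcript length (another unit, in bases) per gene. Per the labels' processing notes, reads were trimmed with Trimmomatic and aligned with STAR to hg19. Versions are not given in the sources used here. Gene identifiers were named by GENCODE 29 (50276 directly and 1221 through their transcripts). The members, lists and rule for named genes (EIF4B, the highest and lowest member of each role, members past 2 or -2 in a RIP or 1 or -1 between inputs) were chosen with earlier results of these data known. Enrichment used log2(FPKM + 1) and centring on genes with a mean of at least 1 FPKM. Expected counts were rounded and tested with edgeR 4.0.16 (DESeq2 1.42.0 as alternative, R 4.3.3). The edgeR test was also run on simulated counts in which 11564 of the 11764 genes were unchanged, more than in these data. It called 78.8% and 76.5% of genes with a true log2 change of -2 and 2, but 18.2% and 11.8% at -1 and 1. A member that did not pass the test may therefore still have changed by that much. Whether the hnRNPK repeats are separate cultures is not stated, so p-values measure the spread between these libraries, which may be technical. Sequence features came from the longest protein-coding GENCODE transcript. The samples were grouped by their labels. Read from the GENCODE annotation, genome positions are on GRCh38.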

Additional observations from a re-analysis of the deposited data

Results flagged for a closer look

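For 10 members the centred enrichment had one sign in the FLAG-CBFB RIP and the other in both hnRNPK repeats, and the difference was not tested, since the FLAG-CBFB RIP is 1 library. The CBFB values of EIF4G3 (-0.01), EIF2B2 (0.01), EIF4ENIF1 (-0.06), EIF4EBP3 (0.08) and EIF2B3 (0.09) were close to the point of centring. The median of all analysed genes was -0.19. The signs of these CBFB values therefore depend on where that point is set. The values below are CBFB minus mean hnRNPK enrichment on the centred log2(FPKM + 1) scale. For 6 of the 10 the CBFB value was the negative one: EIF4G3 (-1.6), EIF4E3 (-1.35), EIF2AK3 (-1.32), EIF2S3B (-0.98), EIF4ENIF1 (-0.823) and EIF5A2 (-0.6). Of these, EIF4E3, EIF2AK3 and EIF5A2 were under 10 FPKM in every library. For 6 of the 10 (EIF2AK3, EIF4E3, EIF2S3B, EIF2B2, EIF2B3 and EIF4EBP3) the share of nuclear-encoded counts was below that of the input in all 3 RIPs, so that the signs did not differ on that scale. EIF4G3, EIF4ENIF1 and EIF4EBP1 kept opposite signs there. EIF4G3 stood at 93.95% of its input share for CBFB and 3.17-fold and 2.83-fold its input share for hnRNPK. EIF4ENIF1 stood at 90.6% for CBFB. The median of all analysed genes for CBFB was 73.2%, so EIF4G3 and EIF4ENIF1 lay above the median gene in that RIP as well. For the other 4 the CBFB value was the positive one: EIF4EBP1 (2.36), EIF2B2 (1.38), EIF2B3 (1.25) and EIF4EBP3 (1.08). EIF4EBP1 had 1.49-fold its input share of nuclear-encoded counts for CBFB, but 32.7% and 22.4% for hnRNPK, and its parental input FPKM (317) was above that of the FLAG-CBFB cell input (111).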

How the results depend on the processing

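The median hnRNPK enrichment of the members stayed below 0 under every alternative run, and its size moved: -0.998 with a pseudocount of 0.1, -4.01 without centring, -1.26 centred on the median, -3.35 without a filter, -1.02 and -0.976 with minimum means of 5 and 20 FPKM, -0.362 when scaled before the pseudocount, -0.623 and -0.451 in log2 CPM with TMM and DESeq2 factors, -1.02 against the opposite input and -1.84 in the share of nuclear-encoded counts (an alternative added after the data were seen, as was the sum with pseudogenes). It was -1.36 to -1.30 when either hnRNPK repeat was left out. A median below 0 does not by itself set the members apart. The median of all analysed genes was -2.755 without centring and -1.454 in the share of nuclear-encoded counts. The member median minus that of all genes ran from -3.96 without a filter to -0.27 with a minimum of 20 FPKM. The median CBFB enrichment turned to 0.0373 and 0.0821 with TMM and DESeq2 factors, and was -0.247, -1.74, -0.211, -1.42, -0.332, -0.569, -0.00804, -0.352 and -0.41 under the other alternatives in the order above. The share of all genes under the same setting follows each count in parentheses. Above 2 in the hnRNPK RIP were 0 members without centring (0.757%) or without a filter (0.33%), 2 of 36 with a mean of at least 20 FPKM (15.3%) and 7 when scaled before the pseudocount (14.5%). Below -2 were 1 with a pseudocount of 0.1 (3.05%), 43 without centring (70.7%), 41 without a filter (11.2%), 3 with a minimum of 5 FPKM (3.28%), 0 with a minimum of 20 (3.52%), when scaled first (0.714%) or with TMM (1.43%) or DESeq2 factors (1.01%), 20 in the share of nuclear-encoded counts (28.0%), and 8 to 16 with a repeat left out (6.68% and 6.11%). In the FLAG-CBFB RIP, 1 and 2 members were above 2 with TMM (6.15%) and DESeq2 factors (6.34%), and 10 and 4 were below -2 without centring (15.3%) and without a filter (0.892%). By edgeR 24 members were lower with no filter beyond a count above 0 (14.0%), and 5 by DESeq2 (7.11%). Of transcript lengths, the FLAG-CBFB RIP had 0 members longer at 1000 counts (0.586%) and 3 against the opposite input (4.99%). In hnRNPK repeat 1 the number longer was 1 at 1000 counts (5.69%) and 2 against the opposite input (1.64%). For repeat 2 it was 0 in both settings (5.91% and 2.22%), and 1 was shorter against the opposite input (2.85%). The cause of these changes was not tested. The 4 members above 2 for hnRNPK stayed the 4 highest of the 53 under each of these enrichment scales. EIF4EBP2 and EIF1AD, however, had means under 20 FPKM. The settings of centring and of the filter shift every gene alike, so they could not change these ranks. Ranks could move with the pseudocount, the scaling before it, the CPM factors, the opposite input, the added pseudogenes and the share of nuclear-encoded counts. No paired analysis was possible because both hnRNPK repeats stand against the same 1 input. Leaving out a hnRNPK repeat in edgeR left no residual degrees of freedom, so no test was run. Depth limits the rarer members, with 3 and 4 of the 53 under 100 counts in the hnRNPK RIPs.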
